A study of Mus musculus with 6 samples.

Results

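The transcripts described here encode 9 core proteins of the postsynaptic density of excitatory synapses: the Shank scaffolds Shank1, Shank2 and Shank3, the membrane-associated guanylate kinases Dlg4 and Dlg2, the linker Dlgap1, the adaptors Homer2 and Homer3, and the kinase subunit Camk2a. They were listed by name for what their proteins do, with earlier results of these data known, and each symbol was matched to its Ensembl identifier through the GENCODE annotation. They are 9 of the 55487 genes in the count table, and all 9 passed the filter on low counts that left 16119 genes for testing.

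The postsynaptic density is the protein meshwork under the membrane of an excitatory synapse. Dlg4 (PSD-95) and its relative Dlg2 sit close to the membrane and hold glutamate receptors and adhesion proteins. Dlgap proteins link them to the Shank proteins, which lie deeper and bind Homer, and Homer in turn binds metabotropic glutamate receptors. Camk2a, the alpha subunit of calcium/calmodulin-dependent kinase II, is both an enzyme and an abundant structural protein of the same meshwork, and is used by forebrain excitatory neurons. Mmp9, the gene mutated in these mice, encodes a secreted protease that cleaves extracellular matrix and adhesion proteins around synapses.

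Total RNA from dissected visual cortex of B6.CBA/Tar mice at postnatal day 28 was sequenced in 6 libraries from strand-marking preparations. The 3 genotypes were WT/WT (called WT), heterozygous (het) and homozygous for the Mmp9 UTRmut allele (UTRmut), whose name refers to an untranslated region of Mmp9. Each genotype had 1 female library (replicate 1) and 1 male library (replicate 2), so a genotype is compared over 2 libraries and each combination of genotype and sex is a single library. No treatment is given for any group, and the labels do not say whether a library holds 1 animal or several, or whether the animals were littermates. The p-values rest on the spread between these libraries, moderated by that of other genes, and n is 2 for every genotype mean ± SD. All comparisons with WT share the same WT libraries.

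The libraries held 9500090 to 11966579 counts. Mmp9 itself had 4 to 16 counts per library, too few to check the genotype labels, and its level is not known to mark the allele. Xist had 6164 to 7056 counts in the libraries labelled female. It had 15 and 5 in the het and UTRmut males but 268 in the library labelled WT male, 3.53% of the mean female level, and the same library had 2265 counts of Y-linked genes. The library labelled WT male therefore goes in part against its label, and the sex difference in the change per allele is given below without it as well. Markers of neurons, astrocytes, oligodendrocytes and microglia were detected in every library, and none of the listed markers was at 0 in any of them. In RNA from whole tissue, fewer cells of a type and less RNA per cell cannot be told apart.

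Levels between genes are compared as CPM (counts scaled to library size, with TMM factors) per kilobase of annotated exon. On this scale Camk2a stood highest, at 199 ± 18.4 CPM per kb (SD over the 6 libraries), and Camk2b, the beta subunit of the same kinase, was at 77.2 ± 1.87. The ratio of Camk2a to Camk2b per length was 2.57 ± 0.191. Dlg2 followed at 38.9 ± 0.849 CPM per kb, then Dlgap1 at 30.6 ± 1.05, Dlg4 at 29.7 ± 7.20, Shank1 at 23.6 ± 6.85, Shank2 at 18.99 ± 1.67, Shank3 at 11.3 ± 2.01 and Homer2 at 9.08 ± 0.780. Homer3 was the lowest of the 9, at 0.994 ± 0.310 CPM per kb. In this order Dlgap1 and Dlg4, Dlg4 and Shank1, Shank1 and Shank2, and Shank3 and Homer2 had overlapping ranges over the libraries, whereas Camk2a, Dlg2 and Homer3 overlapped with no neighbour. The order was the same when counts were divided by the length of the longest annotated transcript. By that length Camk2a was at 298.8 and Camk2b at 170.8 CPM per kb, so the ratio between them depends on the length used.

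**Figure D1:**
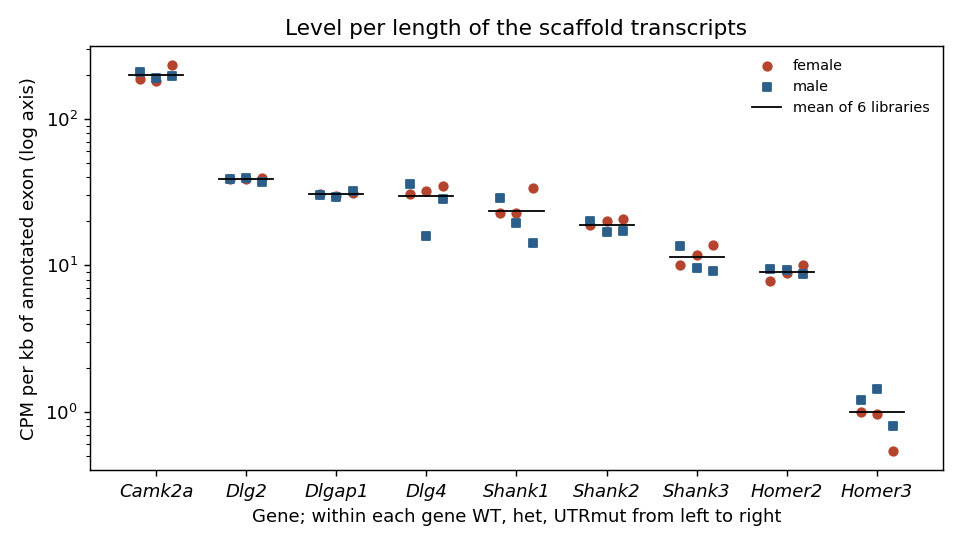
Level of each scaffold transcript in CPM per kb of annotated exon (log axis), with 1 point per library and genotypes from left to right within each gene. Camk2a lies near 199 and Homer3 near 0.994, with the other 7 genes between 7.82 and 39.7.

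The Homer family differed most within itself. Homer1, the relative whose short form is induced by neuronal activity, was at 82.4 ± 17.0 CPM per kb, and Homer2 was on average 10.1 ± 4.41 times Homer3 per length. The table counts whole genes, so the long and short Homer1 forms are not told apart here. Among the other relatives, Camk2d was at 4.66 CPM per kb of annotated exon. Dlgap3 (38.3), Dlg3 (38.1) and Dlg1 (32.9) were at levels like those of Dlg2 and Dlgap1 on that scale only. Per kb of the longest transcript they were at 41.1, 44.4 and 57.5, below Dlg2 at 80.9 and Dlgap1 at 76.4.

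Of the 3 Shank genes, Shank1 (chromosome 7, 44310253 to 44360572 of GRCm38, plus strand) varied most. Its level was 239.2, 238.5 and 354.9 CPM in the WT, het and UTRmut females and 302.6, 205.0 and 150.4 CPM in the WT, het and UTRmut males. The highest and the lowest of the 6 libraries are thus the female and the male of the same genotype, UTRmut, and they differ 2.36-fold. Those values rest on 1732 to 3808 counts per library. Shank3 (chromosome 15, 89499623 to 89560261, plus strand), a gene whose loss in people is linked to autism, was at 92.8, 107.9 and 127.1 CPM in the females and 124.5, 88.6 and 84.6 CPM in the males, in the same genotype order. Females stood in the order WT, het, UTRmut from low to high, and males in the opposite order. Shank2 (chromosome 7, 144001928 to 144424494, plus strand) was steadier, at 202.2, 217.8 and 223.5 CPM in the females and 216.8, 181.0 and 185.2 in the males. The ratio of Shank1 to Shank2 per length ran from 0.832 in the UTRmut male to 1.63 in the UTRmut female.

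Dlg4 (chromosome 11, 70016942 to 70047522, plus strand) was at 409.8, 424.3 and 458.2 CPM in the WT, het and UTRmut females and at 475.5, 211.4 and 378.0 CPM in the males. The het male stood alone below the other 5 libraries, with 2268 counts against 4084 to 5517. Dlg2 (chromosome 7, 90476672 to 92449247, plus strand) was the steadiest of the 9, at 634.3, 634.0 and 646.2 CPM in the females and 634.2, 639.6 and 605.9 CPM in the males, so it had no low value in the het male. The ratio of Dlg4 to Dlg2 per length was 0.406 in the het male and 0.767 to 0.921 in the other 5 libraries. Dlgap1 (chromosome 17, 69969073 to 70821413, plus strand) was almost as steady, at 549.6, 532.1 and 560.3 CPM in the females and 543.4, 525.3 and 576.4 CPM in the males.

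Homer2 (chromosome 7, 81600481 to 81707527, minus strand) was at 98.7, 112.6 and 127.4 CPM in the WT, het and UTRmut females and at 120.1, 118.3 and 110.4 CPM in the males. Homer3 (chromosome 8, 70282827 to 70294361, plus strand) was near the lower end of what the depth resolves, with 36, 32 and 20 counts in the females and 48, 53 and 32 in the males, or 3.47, 3.32, 1.86, 4.14, 4.94 and 2.78 CPM. In each sex the UTRmut library held the fewest Homer3 counts. Its annotated exons share 874 bases with Ddx49 on the opposite strand, a gene with 159 to 198 counts per library, and since the strand setting of the counting is not given in the sources used here, reads of the 2 genes may not be separated. Camk2a (chromosome 18, 60925618 to 60988152, plus strand) was at 1400, 1362 and 1733 CPM in the females and 1549, 1407 and 1458 CPM in the males, with the UTRmut female highest.

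Set against all genes, 3 of the 9 varied much between libraries, 2 varied little and 3 lay near the middle, with Homer3 at low counts apart. The SD of log2 CPM over the 6 libraries was 0.43 for Shank1 and for Dlg4, and of the 9694 genes with a mean of at least 10 CPM only 0.609% varied as much as Shank1 and 0.619% as much as Dlg4. The median over those genes was 0.11. Shank3 had an SD of 0.25, reached by 5.14% of those genes. At the other end Dlg2 had an SD of 0.03, and 1.03% of those genes varied as little or less, while Dlgap1 had 0.05. Shank2, Homer2 and Camk2a each had an SD of 0.13, and Homer3 had 0.46 at its low counts.

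**Figure D2:**
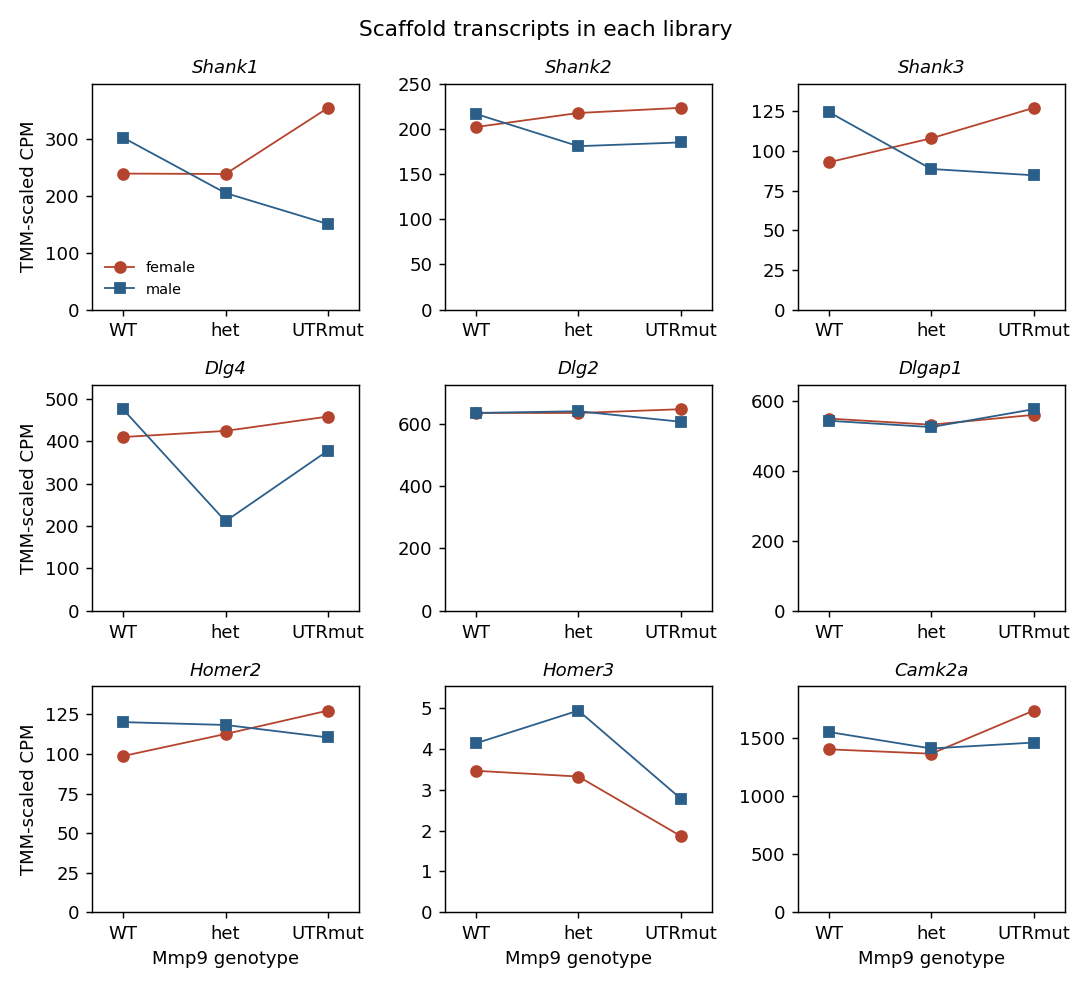
TMM-scaled CPM of each of the 9 scaffold transcripts by Mmp9 genotype, 1 point per library, females as circles and males as squares, each axis starting at 0. Shank3 runs in opposite directions in females and males. Shank1 falls from WT to UTRmut in males, and in females it is raised in UTRmut only. Dlg4 is low in the het male (211.4 CPM), and Dlg2 and Dlgap1 are nearly level.

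None of the 9 transcripts passed the test between UTRmut and WT, the comparison that asks what the homozygous mutation does to the visual cortex transcriptome. By edgeR's quasi-likelihood test 0 of 9 passed an adjusted p of 0.05 (each 0.999), 0 of 9 had an unadjusted p under 0.05, and DESeq2 called 0. Over all genes 0.00620% were called. Means were close for most: Shank2 was at 204.4 ± 27.0 CPM in UTRmut and 209.5 ± 10.4 in WT, a log2 fold of -0.04 (SE 0.11, 95% interval -0.28 to 0.21). For Dlg2 the log2 fold was -0.02 (interval -0.18 to 0.15), for Dlgap1 0.06 (-0.11 to 0.22), for Homer2 0.12 (-0.12 to 0.35) and for Camk2a 0.11 (-0.08 to 0.30).

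The same comparison bounded the variable genes far less tightly. Shank1 was at 252.7 ± 144.6 CPM in UTRmut and 270.9 ± 44.9 in WT, and its log2 fold of -0.10 had an interval of -1.63 to 1.42. The intervals were -1.25 to 1.08 for Dlg4 and -0.64 to 0.56 for Shank3, so moderate differences of either in both directions stay within them. Homer3 had the largest fold of the 9, -0.71 (SE 0.34, interval -1.43 to 0.02). Its 2.32 ± 0.647 CPM in UTRmut lay below its 3.80 ± 0.475 in WT without overlap, as did the Dlgap1 values in the other direction. These 2 of 9 compare with 28.6% of all genes whose UTRmut and WT libraries did not overlap.

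In het against WT, 0 of 9 passed, none at an unadjusted p under 0.05 and none by DESeq2, with 0.0124% called over all genes. Dlg4 had the largest fold, at 317.8 ± 150.5 CPM in het and 442.6 ± 46.5 in WT, a log2 fold of -0.48 (SE 0.40, interval -1.65 to 0.69, adjusted p = 1). That fold rests on the het male: without the het female it was -1.06 with an adjusted p of 0.0106, a fit in which the single het library is assumed to vary like the other groups, and without the het male it was -0.06. Shank1 had a log2 fold of -0.29 (interval -1.82 to 1.24). Shank1 and Dlgap1 were lower in both het libraries than in both WT libraries, 2 of 9 against 27.1% of all genes.

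In UTRmut against het, again 0 of 9 passed by edgeR and 0 by DESeq2, and 0.0124% of all genes were called. At an unadjusted p under 0.05 stood Homer3, with a log2 fold of -0.83 (SE 0.34, interval -1.56 to -0.10), and Camk2a, with 0.20 (SE 0.09, interval 0.01 to 0.40). Both have an adjusted p of 1. At that unadjusted level stood 452 of the 16119 genes tested. Leaving out 1 library moved Homer3 between -1.15 and -0.50 (without the UTRmut male and the het male) and Camk2a between 0.08 and 0.32 (without the UTRmut female and the UTRmut male). Without overlap between the groups were those 2 and Dlgap1, 3 of 9 against 34.3% of all genes. Dlg4 had a log2 fold of 0.40 (SE 0.40). It was 0.98 without the het female and -0.015 without the het male, so it rests on the het male.

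As a trend over 0, 1 and 2 mutant alleles, none of the 9 passed (0.00% of all genes were called by edgeR, 503 genes had an unadjusted p under 0.05, and DESeq2 called 4 genes, none of the 9). The changes per allele ranged from -0.33 (SE 0.18) for Homer3 to 0.06 for Homer2 and Camk2a on the log2 scale. None of the 9 had an unadjusted p under 0.05.

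**Figure D3:**
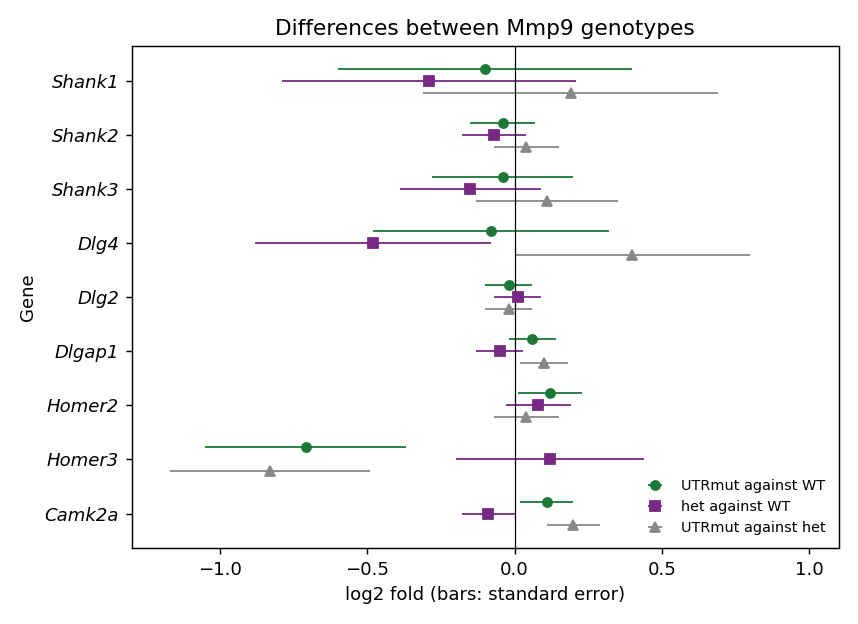
log2 fold of each scaffold transcript in the 3 comparisons between genotypes, with bars of 1 standard error. Bars are long for Shank1, Dlg4 and Homer3 and short for Dlg2 and Dlgap1, and Homer3 lies at -0.71 against WT and -0.83 against het.

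Between the sexes, with genotype in the model, 0 of 9 passed by edgeR (0.0372% of all genes called, 0.00620% higher and 0.0310% lower in females), none had an unadjusted p under 0.05, and the log2 female to male differences were largest for Shank1 at 0.37 (SE 0.42, adjusted p = 0.905), Dlg4 at 0.35 (SE 0.30, 0.878) and Homer3 at -0.46 (SE 0.23, 0.747). The female and male of a genotype differed unequally. For Shank1 the log2 female to male difference was -0.34 in WT, 0.22 in het and 1.24 in UTRmut. For Shank3 it was -0.42, 0.28 and 0.59, and for Dlg4 -0.21, 1.0 and 0.28. The averages therefore move with the libraries that enter: without either WT library they were 0.73 for Shank1, 0.44 for Shank3 and 0.63 for Dlg4, and without either UTRmut library they were -0.07 for Shank1, -0.08 for Shank3 and 0.38 for Dlg4. Without the het female Dlg4 was at 0.029, and without the het male at 0.027. Leaving out a WT library gives a fit whose error comes from other genes alone, so it gives no usable test of these values.

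The clearest pattern among the scaffolds was a change per allele that differed between females and males in Shank1 and Shank3. Shank1 changed by 0.29 per allele in females (SE 0.06, adjusted p = 0.0835) and by -0.50 in males (SE 0.07, adjusted p = 0.0119). The female change of Shank1 rests on the UTRmut female at 354.9 CPM, since the WT and het females were at 239.2 and 238.5. The difference between the sexes was 0.79 (SE 0.09, 95% interval 0.59 to 1.0), with an adjusted p of 0.00241 in edgeR's quasi-likelihood test. Shank3 changed by 0.23 per allele in females (SE 0.06, 0.0835) and by -0.28 in males (SE 0.06, 0.0523), a difference of 0.51 (SE 0.08, interval 0.34 to 0.68, adjusted p = 0.00410). These are 2 of 9, both with the more positive change per allele in females. For the difference between the sexes 1.20% of all genes were called in either direction and 0.893% in that direction. The shares called within 1 sex are not given here.

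The other scaffolds did not pass this test. Homer2 had a difference of 0.25 (SE 0.07, adjusted p = 0.0983), Camk2a of 0.20 (SE 0.08, 0.248) and Shank2 of 0.19 (SE 0.07, 0.234), each with an unadjusted p under 0.05. With Shank1 and Shank3, 5 of 9 were at that level, which 2190 of the 16119 genes tested also reached. Dlg4 had 0.25 with a wide interval of -1.79 to 2.28, because the het male departs from a straight line over the alleles. Intervals were narrow and near 0 for Dlg2 (0.05, SE 0.06) and Dlgap1 (-0.03, SE 0.07), and Homer3 was at -0.16 (SE 0.31). The UTRmut minus WT difference had opposite signs in the females and the males for 7 of 9, all but Dlgap1 and Homer3, against 55.5% of all genes.

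**Figure D4:**
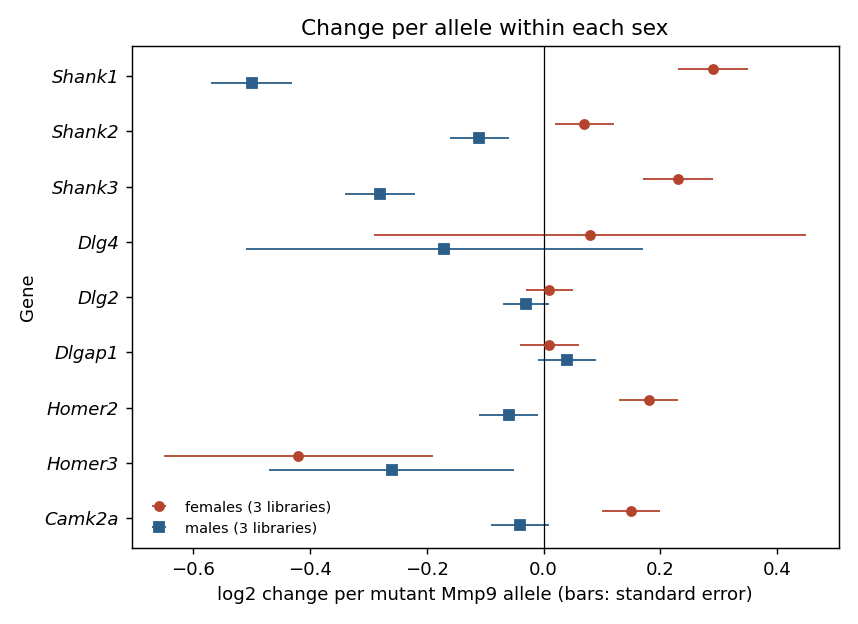
log2 change per mutant Mmp9 allele of each scaffold transcript in the 3 female and the 3 male libraries, with bars of 1 standard error. Shank1 lies at 0.29 in females and -0.50 in males and Shank3 at 0.23 and -0.28, while Dlg2 and Dlgap1 lie near 0 in both.

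This test has 1 library for each combination of genotype and sex and 2 residual degrees of freedom, so it takes its error from departures from a straight line over the alleles and, for the larger part, from the spread of other genes (9.13 prior degrees of freedom for Shank1 and 15.5 for Shank3). Of the 14 alternatives, the 3 that leave out a male library take their error from other genes alone for nearly all genes and are given as values only. Without the library labelled WT male the difference was 0.74 for Shank1, 0.30 for Shank3, 0.29 for Homer2, 0.11 for Camk2a, 0.04 for Shank2, 0.10 for Dlg2, -0.12 for Dlgap1, 0.41 for Homer3 and -0.75 for Dlg4, so Dlg4 and Homer3 turned sign and Shank3 fell by more than 1.5 times. In the other 11 the Shank1 difference passed each time, from 0.49 (adjusted p = 0.0209) with the library share of TEC genes, a class of unverified transcripts, as a covariate to 1.08 (4.10e-05) without the WT female. Without the UTRmut female it was 0.50 (0.0426). The 11 include the edgeR fit with no filter on low counts, whose adjusted p for Shank1 was 7.91e-26. Its Shank1 value (0.80, SE 0.07) equals that without the het male, a fit of the kind set aside above. The prior degrees of freedom of the fit with no filter were not looked at, so its passes are not taken as a usable test. The Shank3 difference passed in 8 of the 11, that fit included. It missed the threshold with the TEC share (0.26, adjusted p = 0.649), without the WT female (0.52, 0.197) and without the UTRmut female (0.50, 0.147). Over all 6 omissions Camk2a ran from 0.006 without the UTRmut female to 0.39 without the WT female, Shank2 from 0.043 without the WT male to 0.34 without the UTRmut male, Homer2 from 0.21 to 0.29, and Dlg4 from -0.75 without the WT male to 1.25 without the UTRmut male.

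Some features of the libraries followed the order of Shank1 or Shank3, or its reverse, in 1 sex or in both. Hippocampal markers summed to 148.6, 177.9 and 206.1 CPM in the WT, het and UTRmut females and 215.2, 186.1 and 161.4 in the males. The sums had the order of Shank3 in both sexes, but Zbtb20 made up much of them. It was at 91.4, 111.2 and 138.2 CPM in the females and 140.1, 121.6 and 84.2 in the males. The markers' median deviation from each gene's mean log2 CPM was 0.23, 0.04 and 0.07 in the males, not that order. The sex difference in the change per allele was positive for 5 of 6, with Zbtb20 called at 0.66 and the lowest marker at -0.60. TEC genes took 0.751%, 0.680% and 0.521% of counts in the WT, het and UTRmut females and 0.477%, 0.523% and 0.452% in the males. The summed neuron markers stood at 5724, 5922 and 6381 CPM in the females and 6471, 5990 and 6277 in the males, and all 12 had a positive sex difference in the change per allele (median 0.11, Tubb3 called at 0.32). Astrocyte markers summed to 5698, 6369 and 7049 CPM in the females and 6454, 6400 and 6072 in the males (8 of 10 positive, Aqp4 called at 0.38). These sums also followed Shank3 in both sexes, but Slc1a2 made up most of them. It was at 4094, 4589 and 5245 CPM in the females and 4667, 4519 and 4189 in the males. The markers' median deviations had the same order, at -0.15, 0.00 and 0.05 in the females and 0.06, 0.02 and -0.08 in the males. Microglia markers summed to 253.7, 281.1 and 292.9 CPM in the females and 303.6, 285.4 and 283.6 in the males, again the order of Shank3. Their median deviations lacked that order, at -0.13, 0.07 and -0.01 in the females and 0.04, 0.06 and -0.02 in the males. Of the microglia markers 7 of 10 were positive (median 0.15), with 0 called. TEC, neuron and meninges values did not follow Shank1 or Shank3 in the males. Markers of the meninges, the tissue over the cortex, summed to 377.3, 558.6 and 625.5 CPM in the females and 477.7, 792.1 and 345.0 in the males (11 of 11 positive, median 0.57, Col1a2 called at 0.54). Oligodendrocyte markers had 0 of 10 positive and a median of -0.15. Their sums were 3950, 3797 and 3157 CPM in the females, the reverse of Shank3, and 3913, 3860 and 4137 in the males. Over all genes 48.9% were positive. Without the WT male, 3 of 6 hippocampal, 7 of 12 neuron, 9 of 10 astrocyte, 7 of 10 microglia, 10 of 11 meninges and 0 of 10 oligodendrocyte markers were positive. The part of these in the Shank1 and Shank3 differences was not tested beyond the TEC covariate.

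Other genes of the same pathway passed this test at about the share of all genes, 1.20%. Of the 9 relatives of the scaffolds, 1 passed: Dlgap3, another linker, at 0.32 (SE 0.07, adjusted p = 0.0232). Homer1 did not pass it (0.47, SE 0.11, 0.0991). Its change in females alone passed, at 0.50 per allele (SE 0.08, adjusted p = 0.0394), from 598.5 CPM in WT to 1034 in het and 1193 in UTRmut, while the males were at 984.3, 1089 and 1019 CPM. The WT female thus stood alone below the other libraries, and the share of all genes called within females is not given here. Of 28 other proteins of the postsynaptic density 0 passed in edgeR, 20 were positive and the median was 0.06. The closest to the threshold were Sipa1l1, a spine protein that binds Dlg4 (0.26, SE 0.06, adjusted p = 0.0586), and Synpo, an actin-binding spine protein (0.22, 0.138). Of 20 glutamate receptors and their auxiliary subunits 0 passed and 12 were positive, led by Cacng2 (stargazin), which anchors receptors to Dlg4 (0.33, 0.0824). The median over the 9 scaffolds was 0.20, with 7 positive. Without the WT male Dlgap3 was at 0.26 and Homer1 at 0.60, and 4 of 9 relatives, 12 of 28 other proteins of the postsynaptic density, 9 of 20 glutamate receptor genes and 7 of 9 scaffolds were positive, where 49.9% of all genes were.

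Adhesion proteins of excitatory synapses had 9 of 17 positive and a median of 0.01, none called. The inhibitory postsynapse had 9 of 12 positive (median 0.06), with Iqsec3, a protein of inhibitory synapses, called at 0.30 (adjusted p = 0.0485). Presynaptic proteins had 17 of 22 positive (median 0.11), none called. Without the WT male 6 of 17, 6 of 12 and 8 of 22 genes of these lists were positive, and Iqsec3 was at 0.28. Immediate-early genes, which follow neuronal activity, had 13 of 20 positive (median 0.19). Of the 20, 5 were called with a more positive change per allele in females and 1 with a more negative one, against 0.893% and 0.310% of all genes. Without the WT male 13 of 20 were positive. Their sum was 1736 CPM in the WT female and 2520 to 2972 in the other 5 libraries. The WT female was also the library with the lowest Homer1.

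In UTRmut against WT none of these lists held a called gene. The scaffolds had 3 of 9 positive (median -0.04), their relatives 7 of 9 (0.04), the other postsynaptic density proteins 16 of 28 (0.02), glutamate receptors 7 of 20 (-0.03) and presynaptic proteins 9 of 22 (-0.01), where 47.9% of all genes were positive and the median was -0.01. Immediate-early genes had 19 of 20 positive and a median of 0.42. The largest change among the relatives was in Homer1, at 0.48 (SE 0.26, adjusted p = 0.999).

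The genes whose pattern over the 6 libraries lay closest to each scaffold were ranked by the root mean square distance of log2 CPM centred on its mean. For Shank3 the closest was Arhgap33, at 0.05, followed by Htatip2. Shank1 had no gene as near, with Rangrf at 0.10 and Slfn5 at 0.16. For Dlg4 the closest were Gm12592 at 0.12 and Rpsa-ps2 at 0.17, neither of which is as near as those of the steadier genes. For Shank2 they were R3hdm2 and Scarb1 (0.02 each), for Homer2 Elfn1, a postsynaptic adhesion protein, and Tsc22d2 (0.02 each), and for Camk2a Tsnax and Egln1 (0.03 each). Within the 9, the nearest were Dlg2 and Dlgap1, at 0.07, and Homer2 and Camk2a, at 0.09. This distance is limited by the spread of the genes, so steady genes lie near each other whatever their pattern. Dlg2 and Dlgap1, with SDs of 0.03 and 0.05, deviated in opposite directions in the UTRmut male (-0.06 and 0.07). Shank1 and Dlg4, with SDs of 0.43, had few genes as variable to be compared with, so larger distances there do not show a more particular pattern.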

How the data were processed

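Raw gene counts were deposited by the authors as 1 table of the 6 libraries, with no normalization. The submitters' processing notes name the build GRCm38 and, among the tools, HTSeq 0.6.0, HISAT2, Trimmomatic 0.39 and GATK 4.2.3.0. Whether counting used strand is not given in the sources used here. Symbols, exon lengths and positions came from GENCODE M21. Identifiers without a symbol numbered 260 and held 0.0162% of counts.

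Genes were kept by filterByExpr (minimum count 10, minimum total 15), scaled by TMM, and compared by the robust quasi-likelihood F test of edgeR 4.0.16 (R 4.3.3), with Benjamini-Hochberg adjustment across the 16119 genes. Genotype was fitted as a factor over all 6 libraries, as a number of mutant alleles, with sex, and with a separate change per allele in each sex. The steps were run on simulated data for UTRmut against WT and for the sex difference in the change per allele only. No library was simulated as standing apart, and the outcome is not given here. DESeq2 1.42.0 and other settings were alternatives. Members and lists were chosen with earlier results of these data known. Of other lists, the 2 genes with the smallest unadjusted p in a comparison could be named, and for likeness the 3 closest genes that vary at least as much. A GC offset, and leaving out libraries or adding the TEC share for the sex difference in the change per allele, were chosen after seeing the data, as was giving relatives and lists without the WT male. Totals of 9500090 to 11966579 counts make 3 counts 0.251 to 0.316 CPM. Replicates of a genotype differed beyond counting noise.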

Additional observations from a re-analysis of the deposited data

Results flagged for a closer look

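The change per mutant Mmp9 allele differed between females and males for Shank1, by 0.79 on the log2 scale (edgeR, adjusted p = 0.00241), and for Shank3, by 0.51 (adjusted p = 0.00410). Each was singled out because the test of the difference between the sexes itself passed the threshold. Each combination of genotype and sex is 1 library. The Shank3 call was lost with the TEC share as a covariate (0.26, adjusted p = 0.649), without the WT female (0.52, 0.197) and without the UTRmut female (0.50, 0.147), and its value was 0.30 without the library labelled WT male.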

How the results depend on the processing

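With 2 libraries per genotype, the calls over all genes depend on the settings, and the values of the scaffolds depend on the libraries that enter. Of 819 recomputed scaffold values, those under alternatives other than leaving out a library kept direction and side of the threshold in 485 cases, turned in 9 and lost the call in 1. Leaving out 1 library kept 257, turned 51, brought 13 past the threshold and lost 3. In 5 of these fits (female against male without either WT library, and the sex difference in the change per allele without any male library) the error came from other genes alone, so the 11 calls gained and 1 lost there, and the counts of genes they give, are no test. Genes called in UTRmut against WT numbered 1, and 8 with DESeq2, 27 with no filter on low counts, 2 with the TEC share as a covariate and 3 with the other genotype left out of the fit. For het against WT the 2 became 13 with no filter, 5 with the TEC share and 1 with 2 genotypes only. For UTRmut against het the 2 became 7 with DESeq2, 28 with no filter, 1 with the non-robust fit, 4 with the TEC share and 10 with 2 genotypes only. The 0 genes of the change per allele became 4 with DESeq2 and 19 with no filter, the 6 of female against male became 10 and 92, and the 194 of the sex difference in the change per allele became 77 and 600, and 121 with the non-robust fit. With the TEC share 1 of the 9 scaffolds was called in that last test, and Shank3 fell to 0.26. The cause of these moves was not tested.

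Replicate numbers coincide with sex. Deviations of same-numbered libraries correlated at 0.25 (WT and het), -0.17 (WT and UTRmut) and 0.13 (het and UTRmut) over 9334 autosomal genes, so the numbers are not taken to pair the libraries. With the replicate block 4 genes were called in UTRmut against WT and 4 in UTRmut against het, none of them among the 9.

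With the TEC share the sign turned for Shank2 (0.00045) and Dlg4 (0.035) in UTRmut against WT, Homer2 in UTRmut against het (-0.038), and Dlg4 (-0.86), Homer3 (0.77) and Camk2a (-0.07) in the sex difference of the change per allele. With upper-quartile factors it turned for Dlg2 in het against WT (-0.0019) and Dlgap1 in female against male (0.014), the latter also with the GC offset (0.0087). Per kb of the longest transcript rather than of all exons, levels moved to 298.8 CPM for Camk2a, 80.9 for Dlg2, 76.4 for Dlgap1, 62.1 for Dlg4, 22.8 for Shank2, 14.2 for Shank3, 10.4 for Homer2 and 1.31 for Homer3.

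Leaving out 1 library at a time, the values below include a turn of sign or a moved count, lowest to highest. UTRmut against WT: Shank1 -0.85 to 0.39, Shank2 -0.17 to 0.10, Shank3 -0.36 to 0.23, Dlg4 -0.22 to 0.05, Dlg2 -0.06 to 0.029, Homer2 -0.015 to 0.28, Camk2a -0.013 to 0.23, and 2 to 124 genes called. Het against WT: Shank2 -0.21 to 0.05, Shank3 -0.34 to 0.09, Dlg4 -1.06 to -0.06, Dlg2 -0.0021 to 0.014, Homer2 -0.06 to 0.23, Homer3 -0.20 to 0.38, 1 to 41 genes called and 0 to 1 scaffolds. UTRmut against het: Shank1 -0.56 to 0.68, Shank2 -0.10 to 0.18, Shank3 -0.21 to 0.37, Dlg4 -0.015 to 0.98, Dlg2 -0.07 to 0.022, Homer2 -0.06 to 0.14, 0 to 12 genes and 0 to 1 scaffolds. Change per allele: Shank1 -0.40 to 0.14, Shank2 -0.08 to 0.031, Shank3 -0.17 to 0.10, Dlg4 -0.16 to 0.07, Dlg2 -0.026 to 0.014, Homer2 -0.00058 to 0.13, Camk2a -0.018 to 0.12, and 0 to 45 genes. Female against male: Shank1 -0.07 to 0.73, Shank2 0.08 to 0.27, Shank3 -0.08 to 0.44, Dlg4 0.027 to 0.63, Dlg2 -0.0098 to 0.044, Dlgap1 -0.017 to 0.014, Homer2 -0.18 to 0.07, Camk2a -0.10 to 0.10, 7 to 198 genes and 0 to 4 scaffolds. Sex difference in the change per allele: Dlg4 -0.75 to 1.25, Dlgap1 -0.12 to 0.07, Homer3 -0.67 to 0.41, Shank3 0.30 to 0.72, 15 genes (without the WT female) to 753 (without the het male) and 1 to 5 scaffolds.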
